A study of Mus musculus with 42 samples.

Results

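The activator protein 1 (AP-1) genes Fos, Fosb, Fosl1, Fosl2, Jun, Junb, Jund and Atf3 were followed in the main olfactory epithelium of mice that had smelled a food odour or none. They were taken by their GENCODE M21 symbols, 8 of the 44674 genes in the deposited table, whatever their values. Adult male C57BL/6NCrl mice of 8 to 12 weeks received no odour or 1 h of the odour of normal chow diet (NCD), of a bacon-flavoured diet (Bacon) or of a lard-based high-fat diet (HFD). Each sample was a pool of 4 epithelia, and each of the 21 pools gave 1 library from ribosomes captured with an antibody to phosphorylated ribosomal protein S6 (pulldown) and 1 from the whole lysate (input). There were 5 pools without odour, 6 with NCD, 5 with Bacon and 5 with HFD odour, all of 1 strain and sex and with no transgene. A pool mixed all cell types of the epithelium and averaged over its animals, so fewer cells of a type and less RNA per cell cannot be told apart. The p-values below measure the spread between pools, and the 3 odours were set against the same 5 pools without odour.

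AP-1 is a family of paired basic leucine zipper transcription factors. Fos proteins bind DNA only with a partner such as a Jun protein, whereas Jun proteins can also pair with each other, and Atf3 pairs with Jun proteins. Fos, Fosb and Junb are classical immediate early genes, transcribed soon after calcium, cyclic AMP or growth factor signals reach kinases that act on factors already bound at their promoters. In olfactory sensory neurons an odour opens cyclic nucleotide-gated channels and lets calcium in, and phosphorylation of S6 is used as a mark of neurons that were recently active.

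The promoters of Fos and Fosb are shown because these 2 members moved most in the data. Both windows are the 250 bases before the RefSeq start on GRCm38.p6, 5′ to 3′ on the gene's strand, at chr12:85473640-85473889 (plus strand) and chr7:19310046-19310295 (minus strand). Capitals mark TGACG, the core letters of the cyclic AMP response element, found on either strand.
Fos: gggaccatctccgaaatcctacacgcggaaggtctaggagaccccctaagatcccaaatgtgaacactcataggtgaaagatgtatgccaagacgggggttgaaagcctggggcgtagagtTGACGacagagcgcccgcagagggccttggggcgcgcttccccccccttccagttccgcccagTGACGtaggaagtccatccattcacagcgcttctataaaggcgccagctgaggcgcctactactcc
Fosb: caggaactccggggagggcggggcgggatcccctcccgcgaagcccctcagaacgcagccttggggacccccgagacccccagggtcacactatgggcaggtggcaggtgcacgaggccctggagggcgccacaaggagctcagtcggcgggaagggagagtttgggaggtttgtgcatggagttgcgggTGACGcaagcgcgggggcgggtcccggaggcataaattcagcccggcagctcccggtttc
TGACG began 129 and 66 bases before the Fos start and 60 bases before the Fosb start. It was also present 106 bases before the Junb start and 7 bases before the Atf3 start, and 17.8% of 32851 promoter windows of the same length held it on either strand. The complete element TGACGTCA, which contains TGACG, was in 1.55% of those windows, the AP-1 site TGANTCA in 6.75% and the CArG box bound by serum response factor in 1.47%. None of these last 3 was found in the windows of the 7 members that the promoter table holds (all but Fosl1). Sequence farther than 250 bases upstream was not searched, so an absence holds for these windows only. Relative to the GENCODE gene start, the RefSeq start lay at -1210 bases for Jund, 671 for Fosl2 and 34706 for Atf3, positive being downstream. A match describes letters only.

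The libraries were of similar depth, with 25392651 to 36738192 assigned reads in pulldowns and 24839380 to 36781440 in inputs. Markers of mature sensory neurons fitted the labelled tissue, none of them being at 0 in any library, with a median of 7790 CPM (read counts scaled to a common library total, after TMM scaling) for Omp in pulldowns and 6420 in inputs. Several measures differed between the 5 pools without odour and the 16 with odour, by two-sided exact permutation tests adjusted over 28 tests. The pools with odour were not split by odour in these tests, so a change with each odour is not shown by them. Ribosomal RNA made up 24.7% of input counts without odour (range 19.2 to 28.1) and 13.0% with odour (9.38 to 18.9, adjusted exact permutation p = 0.000344), and 19.1% (11.6 to 23.1) against 11.3% (8.12 to 17.5) of pulldown counts (adjusted p = 0.00225). The 6 macrophage markers summed to 0.589 times the level without odour in pulldowns (107 to 154 CPM without odour, 52.8 to 88.2 with) and 0.77 times in inputs (50.6 to 70.7 against 36.8 to 53.3), and the 6 mature neuron markers to 1.26 times in pulldowns (14670 to 18350 against 16720 to 22960), all with adjusted exact permutation p of 0.00138 or lower. Immature neuron markers (0.854 times), neutrophil markers (0.769 times), respiratory ciliated cell markers (0.887 times) and fibroblast markers (0.726 times) were lower and Bowman gland markers higher (2.25 times, with Bpifb9b called in each odour) in pulldowns, and fibroblast markers (0.768 times) and the mitochondrial share (0.743 times) were lower and ciliated cell markers (1.12 times) higher in inputs, with adjusted exact permutation p of 0.00317 or lower. Bpifb9b made up most of the Bowman gland sum, with a pulldown median of 10700 CPM against 3080 for Muc5b, 46.2 for Aqp5 and 38.5 for Sox9. Of these others, Aqp5 alone was called over no odour, in pulldowns with HFD. The part of all these measures in the values of the members was not tested. No macrophage marker was called higher over no odour with any odour in either kind of library (edgeR quasi-likelihood test, threshold 0.001 after Benjamini-Hochberg adjustment, used throughout). The Bacon pulldown of pool 1 stood apart, with 16720 CPM of mature neuron markers against 20580 to 22960 in the other Bacon pulldowns and 3467 CPM of sustentacular cell markers against 1182 to 2243 in those others. Some Fosb and Jun results that rest on it are also given without it.

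Fos rose with every odour in both kinds of library. Fos (ENSMUSG00000021250, chr12:85473890-85477273, plus strand, GRCm38) encodes the founding Fos protein and is the most widely used transcriptional marker of neuronal activity. In pulldowns without odour the 5 pools held 5.46, 5.31, 6.78, 6.48 and 5.67 CPM of Fos. With Bacon odour they held 11.5, 17.9, 18.5, 16.8 and 20.6 CPM, with HFD odour 14.3, 14.8, 14.3, 13.2 and 13.5 CPM, and with NCD odour from 13.9 to 18.9 with a median of 17.2 CPM. Every pool with odour was above every pool without, and of the 3 odours the HFD pools were the most alike. The log2 fold change over no odour was 1.50 ± 0.11 (SE) for NCD (5 pools against 6), 1.52 ± 0.12 for Bacon and 1.23 ± 0.12 for HFD (edgeR quasi-likelihood test, Benjamini-Hochberg adjusted p = 8.79e-10, 1.31e-09 and 3.90e-08).

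The inputs, which sample all RNA of the epithelium, gave the same picture at a lower level of Fos. Without odour Fos was at 2.06, 2.70, 3.01, 3.06 and 2.35 CPM. With Bacon odour it was at 7.89, 7.94, 7.59, 9.04 and 8.14 CPM, with HFD odour at 7.52, 7.14, 5.70, 7.57 and 7.93 CPM, and with NCD odour between 7.28 and 8.18 with a median of 7.60 CPM. Again no pool with odour reached down to those without. The rises were 1.55 ± 0.10, 1.63 ± 0.11 and 1.45 ± 0.11 on the log2 scale for NCD, Bacon and HFD (edgeR, adjusted p = 6.09e-10, 2.19e-10 and 5.16e-09), between 2.72-fold and 3.09-fold.

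**Figure D1:**
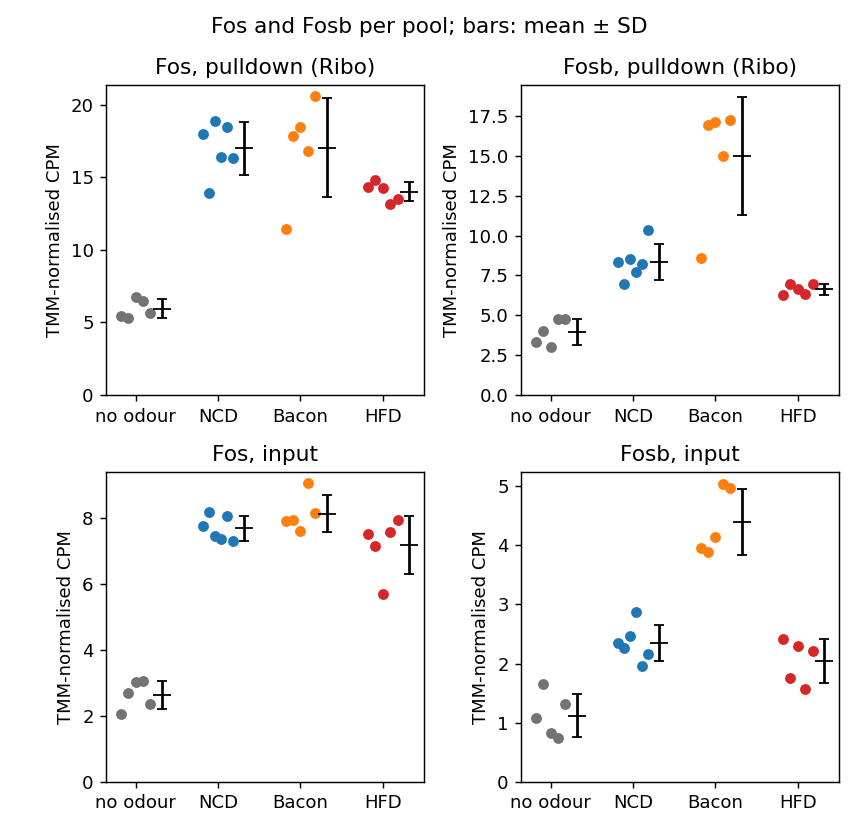
Fos and Fosb in every pool, in CPM, for pulldowns and inputs, by odour, 1 point per library with the group mean and SD. For Fos all pools with odour lie above all pools without, and for Fosb the Bacon pools are the highest apart from pool 1 in the pulldowns.

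Fosb rose with NCD and Bacon odour in both kinds of library, and most with Bacon. Fosb (ENSMUSG00000003545, chr7:19302696-19310051, minus strand) encodes a Fos protein whose truncated splice form, known as delta FosB, accumulates in neurons under repeated stimulation. Without odour the pulldowns held 3.31, 4.03, 2.99, 4.76 and 4.74 CPM of Fosb. With Bacon odour they held 8.63, 17.0, 17.2, 15.0 and 17.3 CPM, with HFD odour 6.29, 6.95, 6.64, 6.32 and 6.99 CPM, and with NCD odour from 6.97 to 10.4 with a median of 8.30 CPM. All 16 pulldowns with odour exceeded the 5 without, and pool 1 of Bacon, the library that stood apart, fell among the NCD pools. The log2 fold change was 1.06 ± 0.15 for NCD (edgeR, adjusted p = 3.04e-05) and 1.91 ± 0.16 for Bacon (adjusted p = 4.14e-09), while HFD, at 0.73 ± 0.16, missed the threshold of 0.001 (adjusted p = 0.00162).

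In inputs Fosb was scarce, at 1.08, 1.65, 0.821, 0.745 and 1.31 CPM without odour. It was at 3.96, 3.90, 4.14, 5.03 and 4.98 CPM with Bacon odour, at 2.42, 1.75, 2.30, 1.56 and 2.22 CPM with HFD odour, and between 1.96 and 2.87 with a median of 2.31 CPM with NCD odour. The Bacon and NCD pools lay above those without odour, whereas 1 HFD pool fell below the highest of them. The log2 fold changes of 1.07 ± 0.18 for NCD and 1.97 ± 0.17 for Bacon passed the test (edgeR, adjusted p = 4.59e-04 and 5.05e-08), and that of 0.87 ± 0.18 for HFD did not (adjusted p = 0.00281).

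The Fosb calls depended more on single pools and settings than those of Fos. Leaving out pool 1 of Bacon brought the HFD pulldowns past the threshold (0.73, edgeR adjusted p = 2.51e-05) and raised the Bacon pulldown value to 2.05. The NCD call in inputs was lost without NCD pool 2, 3 or 4 (1.08, 1.05 and 1.00) or without pool 1 or 3 of no odour (1.05 and 0.97). With each library's share of ribosomal RNA added to the model, the Fosb log2 fold changes were 1.00 for NCD in pulldowns, 1.25 for NCD in inputs and 2.21 for Bacon in inputs, close to or above those without that term, but they no longer passed (edgeR, adjusted p = 0.00356, 0.219 and 0.0141). In inputs that share was lower in every pool with odour than in any without, so the model cannot tell share and odour apart there. Fos kept its call in all 3 odours and both kinds.

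Bacon and HFD odour differed in Fosb, and no difference between odours in Fos passed the test. In the tests between odours, HFD was below Bacon for Fosb by a log2 difference of -1.18 ± 0.15 in pulldowns (edgeR, adjusted p = 2.25e-05) and -1.11 ± 0.16 in inputs (adjusted p = 4.35e-04). This was the 1 member of 8 called in each, where 0.304% of tested genes were called in pulldowns and 0.0831% in inputs. Bacon was above NCD by 0.85 ± 0.14 in pulldowns (adjusted p = 0.001, just short of the threshold) and 0.91 ± 0.15 in inputs (adjusted p = 0.00233). Without pool 1 of Bacon the pulldown value of Bacon over NCD was 1.00 (adjusted p = 3.91e-07), and it also passed without pool 6 of NCD (0.92) or pool 3 of no odour (0.85). HFD against Bacon in pulldowns was at -1.32 without pool 1 of Bacon (edgeR, adjusted p = 4.34e-09). The input value of Bacon over NCD passed without pool 4 of no odour (0.90). In inputs the HFD against Bacon call was lost on leaving out Bacon pool 1, 3, 4 or 5 or HFD pool 2, 3, 5 or 6 (values from -1.02 to -1.15).

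For Fos, HFD against Bacon was -0.29 ± 0.11 in pulldowns and -0.18 ± 0.10 in inputs, and Bacon against NCD was 0.02 ± 0.10 and 0.08 ± 0.09, all with edgeR adjusted p of 0.277 or higher. No member was called between HFD and NCD (0.283% of genes called in pulldowns and 0.0538% in inputs), where Fos, Fosb and Jun, 3 of 8, had an unadjusted p under 0.05 in pulldowns and 0 of 8 did in inputs, and DESeq2 also called 0. Between Bacon and NCD, where 0.197% and 0.108% of genes were called, edgeR called 0 of 8 members, with Fosb alone under an unadjusted p of 0.05 and called by DESeq2 in both kinds of library. The share of all genes under an unadjusted p of 0.05 is not given here, so those counts cannot be set against it.

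A ratio of Fosb to Fos within each library needs no scaling between libraries. It was chosen after the values were seen, with 3 other ratios, giving 48 two-sided exact permutation tests. In pulldowns the ratio of their CPM was 0.675 ± 0.154 (SD, n = 5) without odour, 0.494 ± 0.0707 (n = 6) with NCD, 0.872 ± 0.0793 (n = 5) with Bacon and 0.474 ± 0.0283 (n = 5) with HFD. In inputs it was 0.441 ± 0.17, 0.307 ± 0.0502, 0.541 ± 0.0481 and 0.291 ± 0.0757 in the same order. Bacon thus exceeded NCD by 0.825 in pulldowns and 0.829 in inputs on the log2 scale (exact permutation p = 0.00216 in each, adjusted 0.0104) and HFD was 0.877 and 0.927 below Bacon (exact permutation p = 0.00794, adjusted 0.0159), each the smallest p that these numbers of pools allow. Against no odour no Fosb to Fos ratio passed 0.05 after adjustment.

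**Figure D2:**
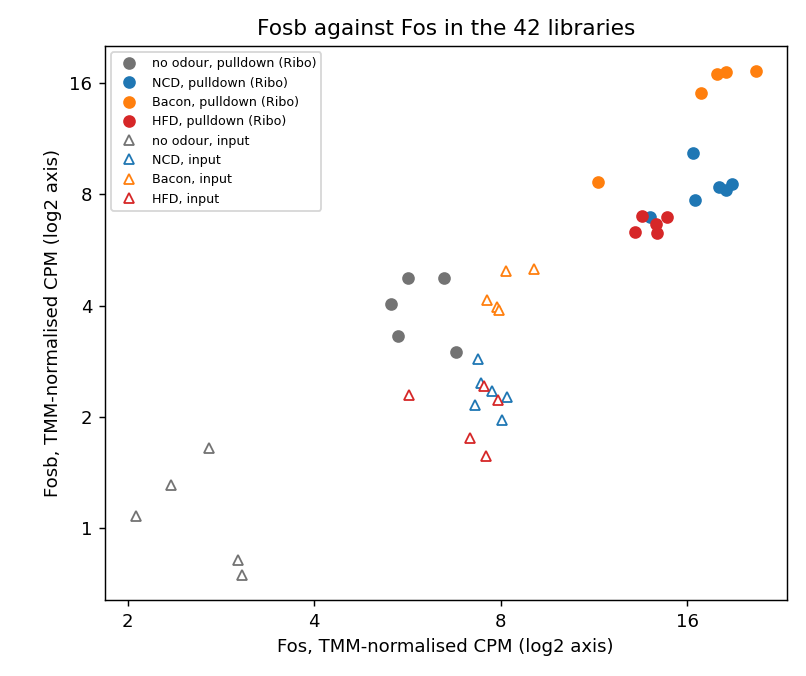
Fosb against Fos in each library, in CPM on log2 axes, with circles for pulldowns and triangles for inputs, 1 symbol per library and coloured by odour. The Bacon pools have more Fosb for their Fos than the NCD and HFD pools.

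Fosl1 and Fosl2 encode Fra-1 and Fra-2, Fos proteins that lack the strong activation domain of Fos and are often induced later. Fosl2 (ENSMUSG00000029135, chr5:32135801-32157842, plus strand) was the most abundant of the Fos family without odour, at 37.1 ± 3.89 CPM without odour and between 34.1 and 42.2 CPM over all odour pulldowns, against 31.2 to 41.3 CPM without. Its inputs ran from 27.7 to 34.2 CPM without odour and from 28.6 to 36.9 CPM with odour. These ranges overlapped throughout, the log2 fold changes lay between -0.04 and 0.11, and none passed the test (edgeR, adjusted p of 0.316 or higher), although without TMM scaling its inputs were called at 0.33 with NCD and 0.38 with Bacon. Fosl1 (ENSMUSG00000024912, chr19:5447547-5455946, plus strand) was near the lower limit, at 1.59 ± 0.522 CPM in pulldowns and 0.836 ± 0.194 CPM in inputs without odour. Its log2 fold changes with odour were 0.17 to 0.43 with SE of 0.22 to 0.26, and none passed the test (edgeR, adjusted p of 0.165 or higher). With SE of this size, changes like these are neither shown nor excluded. Of the 31-base words of Fosl1 transcripts, 54.5% also occur in Ccdc85b on the opposite strand. Since the library protocol keeps no strand, reads that lie wholly within this shared sequence cannot be told apart.

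Jun was the most abundant member and, unlike Fos, was lower with NCD and Bacon odour in the pulldowns. Jun (ENSMUSG00000052684, chr4:95049034-95052222, minus strand) encodes the main partner of Fos proteins. In pulldowns without odour it was at 121, 112, 115, 108 and 97.4 CPM. With Bacon odour it was at 75.0, 85.5, 85.9, 84.3 and 86.2 CPM, with HFD odour at 102, 96.2, 101, 100 and 104 CPM, and with NCD odour from 84.2 to 97.9 with a median of 91.0 CPM. The Bacon pools all lay under those without odour, the NCD pools touched their lower end and the HFD pools overlapped them. Jun fell by 0.30 on the log2 scale with NCD (SE 0.05, edgeR adjusted p = 3.66e-04) and by 0.41 with Bacon (SE 0.06, adjusted p = 2.07e-05), and HFD was at -0.14 ± 0.06 (adjusted p = 0.0785).

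The Jun calls depended on single pools and settings. The NCD call was lost without NCD pool 2, 3 or 4 (-0.28, -0.30 and -0.28) or without pool 1, 2 or 3 of no odour (-0.26, -0.30 and -0.28). Without pool 1 of Bacon, the lowest Jun value of all pulldowns, the Bacon value was -0.38 (edgeR adjusted p = 1.44e-05). With library sizes in place of TMM scaling NCD was at -0.20 (adjusted p = 0.0117), and with the share of ribosomal RNA in the model NCD was at -0.19 (adjusted p = 0.113) and Bacon at -0.30 (adjusted p = 0.0094). Fits on only the groups compared lost both calls (-0.30 and -0.41, adjusted p = 0.00129 and 0.00306), and keeping every gene with at least 1 count lost that of NCD (-0.28, adjusted p = 0.00103). HFD was above Bacon by 0.26 ± 0.06 without passing (adjusted p = 0.017).

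In inputs Jun did not pass in any odour. It stood at 80.5, 74.8, 78.5, 62.2 and 71.0 CPM without odour and between 59.9 and 76.8 CPM over the 16 pools with odour, with log2 fold changes of -0.15 ± 0.07, -0.11 ± 0.07 and -0.01 ± 0.07 for NCD, Bacon and HFD (edgeR, adjusted p = 0.112, 0.239 and 0.908). The Jun antisense gene Junos shares 6.39% of the 31-base words of Jun, and summing both left the pulldown values at 101 to 126 CPM without odour against 79.3 to 92.8 CPM with Bacon.

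Jund, which encodes the Jun protein present in resting cells, was lower in inputs with Bacon odour. Jund (ENSMUSG00000071076, chr8:70698949-70700616, plus strand) was at 33.2, 39.5, 34.5, 37.4 and 29.5 CPM in inputs without odour. It was at 25.5, 23.4, 21.1, 23.8 and 25.1 CPM with Bacon odour, at 30.3, 21.9, 26.4, 27.4 and 31.8 CPM with HFD odour, and from 23.2 to 29.3 with a median of 26.1 CPM with NCD odour. The Bacon and NCD pools were all below those without odour, and the HFD pools overlapped them. Jund fell by 0.55 with Bacon on the log2 scale (SE 0.09, edgeR adjusted p = 1.03e-04), and the values of -0.41 ± 0.09 for NCD and -0.34 ± 0.09 for HFD did not pass (adjusted p = 0.00292 and 0.0121). The NCD value passed without pool 2 of HFD (-0.41) or pool 6 of no odour (-0.47).

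Values that moved with this fall stand beside it. The ribosomal RNA share of the same inputs was 24.7 ± 3.62% without odour and 10.7 ± 1.26% with Bacon, and with that share in the model the Jund value turned to 0.11 for Bacon and 0.08 for NCD (edgeR, adjusted p = 0.963 and 0.896). That share did not overlap between inputs with and without odour, so this model cannot tell share and odour apart. Without TMM scaling, which moved the median of all genes in Bacon inputs by 0.326 on the log2 scale against 0.022 with it (0.21 and 0.212 against -0.007 and -0.003 in NCD and HFD inputs), Jund was at -0.23 (adjusted p = 0.0177). The longest Jund transcript is 67.1% G and C, above 98.7% of tested genes, and the 70 genes within 2 percentage points of it had a median of -0.40 in the same comparison, with 5th and 95th percentiles of -1.62 and 0.47. Of the 31-base words of Jund, 50.1% also occur in the antisense gene Gm11175, and the sum of both was 32.9 to 44.4 CPM without odour and 23.7 to 28.4 CPM with Bacon. The part of each in the result was not tested.

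In pulldowns Jund was at 57.3 ± 6.86 CPM without odour and did not pass with any odour, the log2 fold change being -0.17 ± 0.09, -0.30 ± 0.10 and -0.21 ± 0.10 for NCD, Bacon and HFD (edgeR, adjusted p = 0.194, 0.0300 and 0.121). Junb (ENSMUSG00000052837, chr8:84974484-84978718, minus strand), an immediate early Jun protein that can limit the activity of Jun, was at 6.51 ± 0.95 CPM in pulldowns and 4.20 ± 0.862 CPM in inputs without odour. Its log2 fold changes in pulldowns were between -0.18 and -0.15, and its inputs were at -0.35 ± 0.15, -0.60 ± 0.16 and -0.30 ± 0.16 for NCD, Bacon and HFD, none past the threshold (edgeR, adjusted p = 0.102, 0.00478 and 0.185). Ranges of Junb with and without odour overlapped in every comparison.

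**Figure D3:**
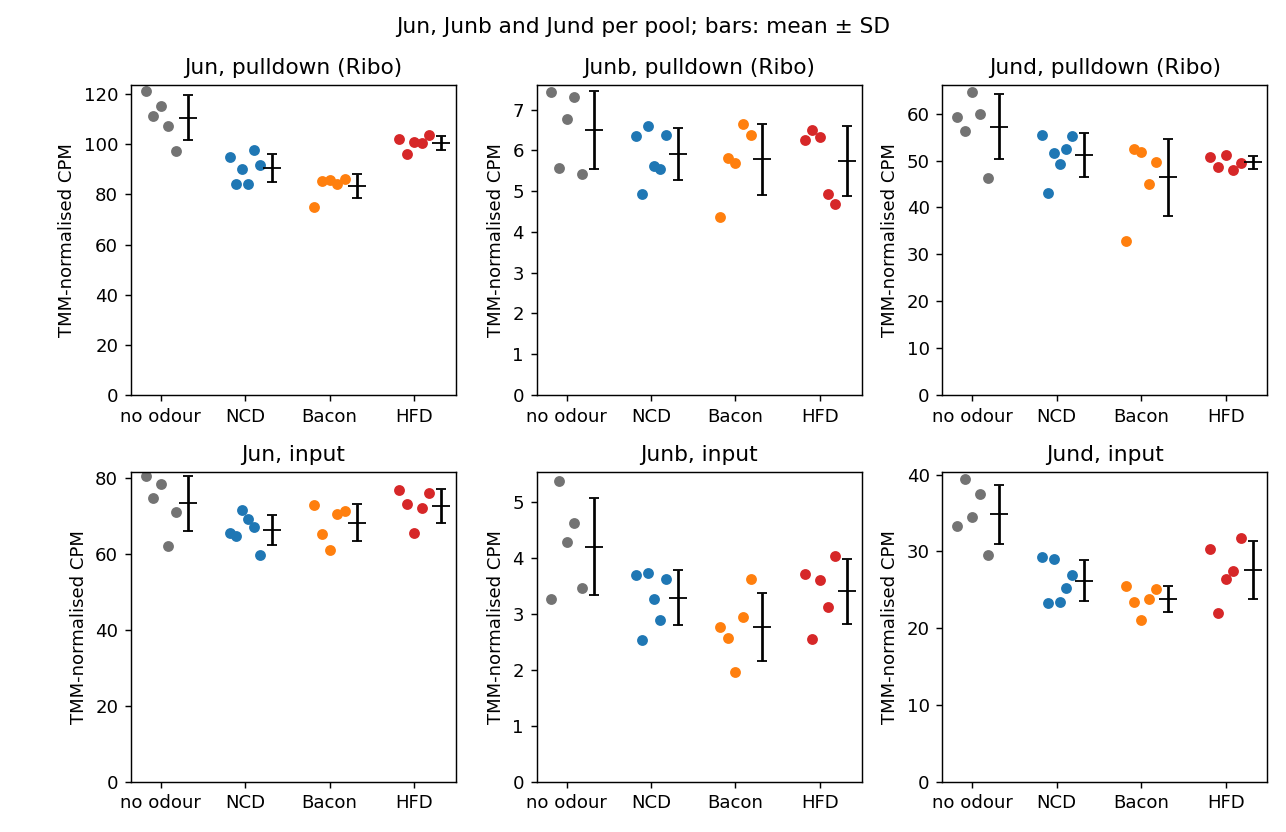
Jun, Junb and Jund in every pool, in CPM, for pulldowns and inputs, by odour, 1 point per library with the group mean and SD. Jun in Bacon pulldowns and Jund in NCD and Bacon inputs lie wholly below the pools without odour.

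Atf3, a stress-induced partner of Jun proteins and in neurons a gene of axon injury, did not pass in any comparison over no odour. Atf3 (ENSMUSG00000026628, chr1:191170296-191218039, minus strand) was at 3.00 ± 0.443 CPM in pulldowns without odour and between 2.03 and 3.87 CPM with odour, and at 2.36 ± 0.214 CPM in inputs without odour and between 1.71 and 3.57 CPM with odour. Its log2 fold changes ran from -0.23 to 0.04 with SE of 0.16 to 0.17 (edgeR, adjusted p of 0.287 or higher).

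Read against all genes, the members called over no odour were Fos, Fosb, Jun and Jund. In pulldowns Fos, Fosb and Jun, 3 of 8, were called with NCD and with Bacon and Fos alone with HFD, beside 4.11%, 4.22% and 5% of tested genes. In inputs 2 of 8 (Fos and Fosb) were called with NCD, 3 with Bacon (Jund being the other) and 1 (Fos) with HFD, beside 0.998%, 13.7% and 0.963% of tested genes. By ranges that do not overlap, Fos and Fosb were higher in pulldowns with all 3 odours, where 6.05% of genes were higher in this sense with NCD, 3.34% with Bacon and 8.83% with HFD, and 1 of 8 (Jun) was lower with Bacon, against 4.54%, and 0 with NCD (4.78%) or HFD (7.54%). In inputs 2 members were higher with NCD (5.84% of genes) and Bacon (13.7%) and 1 with HFD (5.22%), while 1 (Jund) was lower with NCD (4.75%) and with Bacon (13.7%) and 0 with HFD (3.59%). The median over the 8 members was between -0.10 and 0.05 in all 6 comparisons, close to the medians of all tested genes, which were between -0.02 and 0.02.

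**Figure D4:**
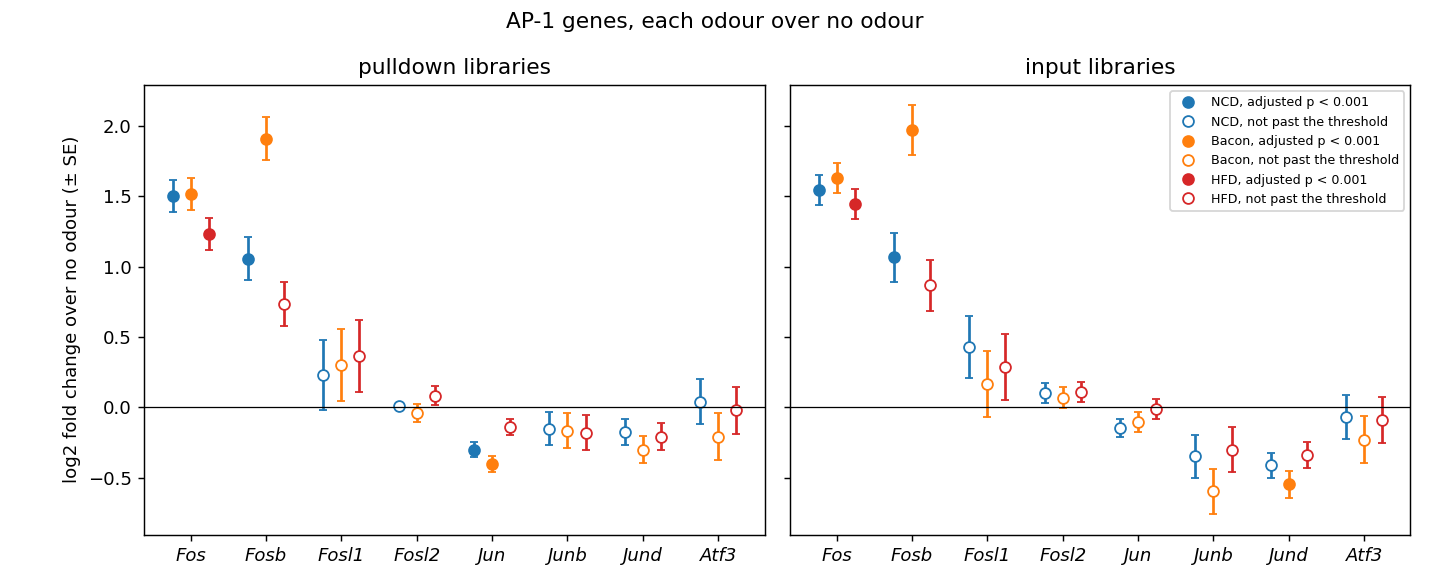
Log2 fold change of each member over no odour with its SE, for pulldowns and inputs and each odour. Filled points passed the adjusted p threshold of 0.001. Fos and Fosb stand highest, and the other 6 lie between -0.60 and 0.43. Fosl2 with NCD in pulldowns, at 0.007, is drawn with no bar because SE was left out for values under 0.01 in size.

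The pulldown-to-input ratio asks whether a transcript gained or lost in the captured ribosomes beyond what it did in the whole epithelium. For Fos and Fosb it did not pass with any odour. The mean log2 ratio of Fos was 1.16 ± 0.161 (SD, n = 5) without odour, 1.14 ± 0.194 (n = 6) with NCD, 1.04 ± 0.329 (n = 5) with Bacon and 0.968 ± 0.224 (n = 5) with HFD. The pools overlapped across all 4 groups, the lowest being pool 1 of Bacon at 0.535, and the ratio change over no odour was -0.04 ± 0.15, -0.13 ± 0.16 and -0.21 ± 0.16 for NCD, Bacon and HFD (edgeR, adjusted p = 0.908, 0.603 and 0.414). Fosb was at 1.80 ± 0.488 without odour and 1.81 ± 0.295, 1.72 ± 0.402 and 1.68 ± 0.273 with NCD, Bacon and HFD.

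Of the 8 members, 0 were called for the ratio with any odour, by edgeR or by DESeq2, where edgeR called 0.524%, 3.78% and 1.22% of tested genes for NCD, Bacon and HFD. At an unadjusted p under 0.05 there was 1 member with NCD (Jund), 2 with Bacon (Jun and Junb) and 0 with HFD, and the share of all genes at that level is not given here. The nearest to the threshold was Jun with Bacon at -0.30 ± 0.09 (edgeR, adjusted p = 0.0145), whose log2 ratio was 0.593 ± 0.122 without odour and 0.289 ± 0.168 with Bacon. Without pool 1 of Bacon it was at -0.24 (edgeR, adjusted p = 0.0381). It passed with library sizes in place of TMM (-0.53, edgeR adjusted p = 2.05e-04). With library sizes the median of all genes also moved with Bacon, by 0.097 in pulldowns and 0.326 in inputs. The part of that shift in the Jun ratio was not tested. Between odours 0 of 8 were called for the ratio and 0 had an unadjusted p under 0.05, beside 0.0236%, 0.0378% and 0.00945% of genes for HFD over NCD, HFD over Bacon and Bacon over NCD, and DESeq2 called 0 as well.

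Without odour most members were already higher in the pulldown than in the input of their pool. The log2 difference was 1.83 ± 0.18 for Fosb, 1.18 ± 0.12 for Fos, 0.72 ± 0.09 for Jund, 0.64 ± 0.14 for Junb, 0.59 ± 0.06 for Jun and 0.27 ± 0.06 for Fosl2 (edgeR, adjusted p of 3.27e-04 or lower). Fosl1, at 0.89 ± 0.28, and Atf3, at 0.34 ± 0.19, did not pass (adjusted p = 0.00870 and 0.124). These 6 of 8 compare with 19.8% of tested genes called higher and 16% called lower, 35.8% in all. Across 20951 genes this difference went with G and C content (Spearman 0.35, a description across genes), and the median of genes within 2 percentage points was 0.82 for Jund, above its own value, 0.53 for Junb, 0.24 for Jun, 0.16 for Fosl2, 0.25 for Fosb and 0.13 for Fos. The Fosl2 call was lost without pool 1, 2, 3 or 4 of no odour (0.27, 0.26, 0.25 and 0.25) and the Junb call without pool 1, 3, 4 or 6 (0.51, 0.62, 0.63 and 0.64). With a replicate block, a pulldown term for each pool number added to the pool terms, 3 of 8 were called (Fos, Fosb and Jun). In that model the value tested is the one at pool number 1, not the mean over the pools, so it is not the same quantity.

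**Figure D5:**
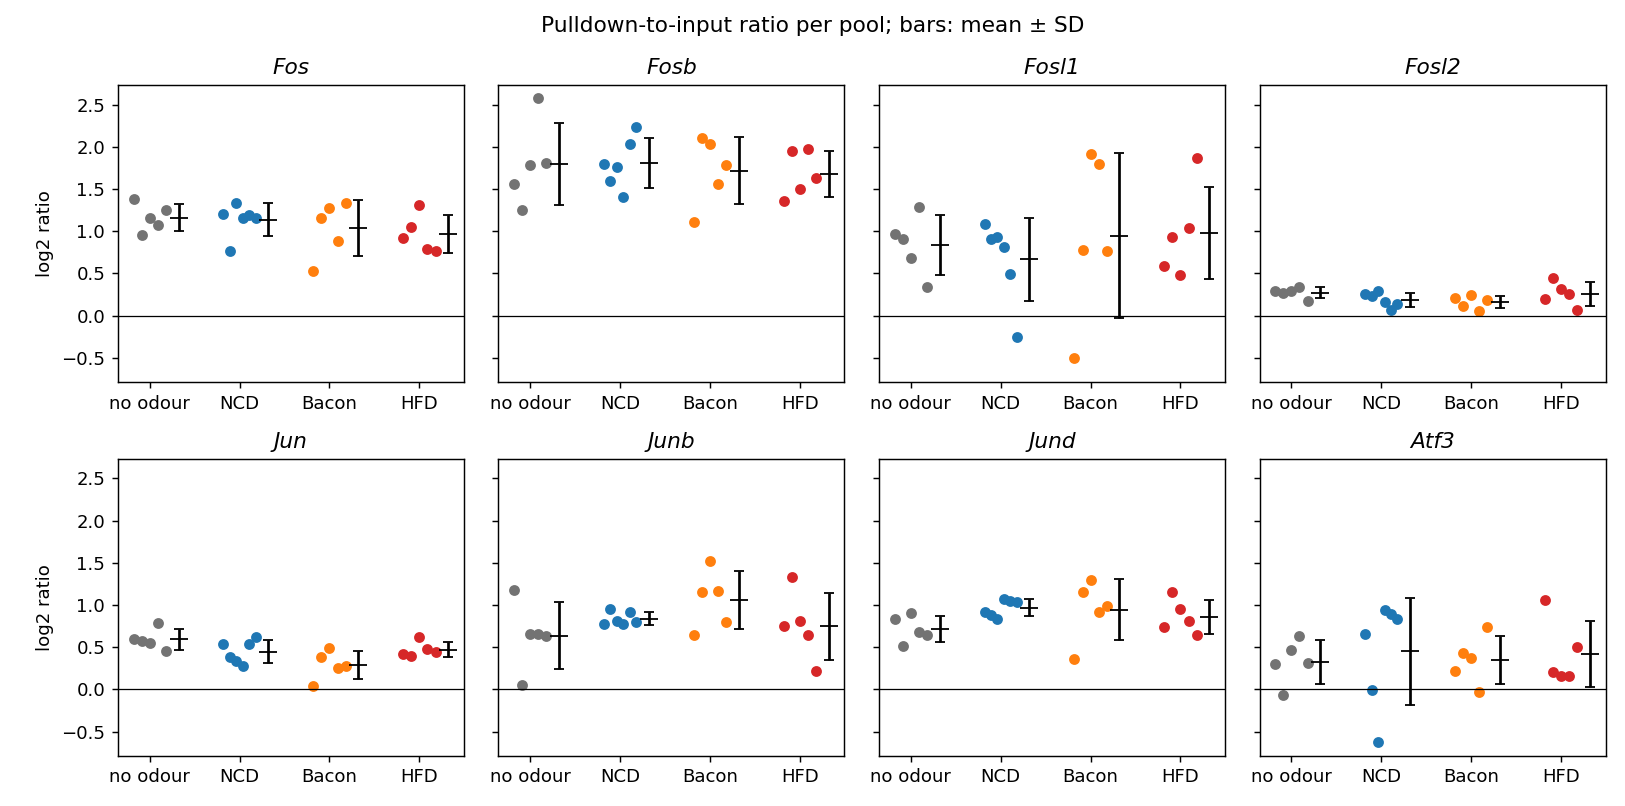
Log2 pulldown-to-input ratio of each member in every pool, by odour, 1 point per pool. Bars give the mean and SD. Fosb has the highest mean ratio in all 4 groups, and each odour's pools overlap those without odour within each member.

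Per kilobase of transcript, which allows levels to be set side by side between genes, Jun and Jund led without odour at 34.7 and 34.3 CPM per kb in pulldowns and 23.0 and 20.9 in inputs. Then came Fosl2 (3.83 and 3.16 CPM per kb), Junb (2.83 and 1.82), Fos (2.53 and 1.12), Atf3 (1.39 and 1.10), Fosl1 (0.782 and 0.411) and Fosb (0.635 and 0.179). With odour the pulldown level of Fos was 7.23, 7.25 and 5.96 CPM per kb for NCD, Bacon and HFD, above that of Fosl2 and Junb without odour. Fosb reached 1.34, 2.40 and 1.06 CPM per kb.

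Across the 21 pulldowns the log2 CPM of Fos and Fosb had a Pearson r of 0.826 and across the 21 inputs of 0.759, a description over libraries that share odour groups and controls. Fos and Jun had an r of -0.667 in pulldowns and -0.334 in inputs, and Junb and Jund, both rich in G and C, of 0.701 and 0.881. By the same measure the 3 genes most like Fos in pulldowns were the immediate early genes Egr1 (0.990) and Nr4a1 (0.977) and the kinase gene Sik1 (0.968), and in inputs Egr1 (0.982), Nr4a1 (0.956) and Ppp1r10 (0.939). Those most like Fosb in pulldowns were the olfactory receptor genes Olfr1193 (0.953) and Olfr1348 (0.939) and the protocadherin gene Pcdh10 (0.926), and in inputs Pcdh10 (0.919), the clock gene Per1 (0.890) and Kidins220 (0.875). For Jun they were Smpd3 (0.940), Arhgap11a (0.925) and Serpina3n (0.921) in pulldowns, and for Jund in inputs Tmem256 (0.966), Cdkn2d (0.964) and Gm43778 (0.960). Junb was most like Slc29a4 (0.864) in pulldowns and Ccdc124 (0.910) in inputs, and the best matches in pulldowns were weaker for Fosl1 (Faap24, 0.821), Atf3 (Rps6, 0.790) and Fosl2 (Cfi, 0.768).

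Other genes of the pathway were taken as lists. Of all tested genes, 4.11%, 4.22% and 5% were called in pulldowns with NCD, Bacon and HFD, in either direction. The like shares were 0.998%, 13.7% and 0.963% in inputs and 0.524%, 3.78% and 1.22% for the ratio. Of 20 other immediate early genes, 6 were called higher in pulldowns with NCD, 7 with Bacon and 5 with HFD, and 0 lower, with list medians of 0.19, 0.21 and 0.19 on the log2 scale. In inputs 4, 5 and 5 were higher and 1, 2 and 1 lower, with medians of 0.11, 0.14 and 0.12. The leading genes were Egr1, a zinc finger factor (1.17, 1.19 and 0.98 in pulldowns and 0.87, 0.95 and 0.77 in inputs), and Nr4a1, an orphan nuclear receptor (1.49, 1.62 and 1.25, and 1.26, 1.46 and 1.10). Next by p-value came Ier5 with NCD (0.64 in pulldowns) and in inputs (0.75, 0.59 and 0.52), and Nr4a2 in pulldowns with Bacon and HFD (1.08 and 0.96). The genes that fell in inputs, named after their values were seen, were Ier3, a regulator of cell survival, with each odour (by 0.66, 0.90 and 0.61) and Zfp36, which promotes mRNA decay, with Bacon (by 0.31). In the pulldown-to-input ratio Btg2, an antiproliferative gene, rose with Bacon (0.63) and Arc, a gene of synaptic plasticity, fell with Bacon (by 0.97) and HFD (by 1.12).

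Of the 16 kinases and factors upstream of Fos and Jun transcription, only Mapk10, the neuronal JNK gene, rose in pulldowns, with NCD (0.35) and Bacon (0.30), and none passed with HFD. In inputs 3 were higher (Rps6ka2 at 0.38, Mapk10 at 0.39 and Elk4 at 0.36) and 1 lower (Mapk3, -0.40) with Bacon and 0 with NCD and HFD. Beside these stand 13.7% of all tested genes called with Bacon, 0.998% with NCD and 0.963% with HFD. Of the 16 other basic leucine zipper partners, 1 rose in pulldowns with NCD (Atf2, 0.36), 0 with Bacon and 2 with HFD (Atf4, 0.61, and Atf2, 0.33), and in inputs 1 of 15 rose, Atf7 with Bacon (0.57).

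Of 10 genes known as AP-1 targets in other tissues 9 could be tested, and none rose. In pulldowns 5 fell with each odour, with list medians of -0.57, -0.58 and -0.50, led by the collagenase gene Mmp13 (-0.57, -0.58 and -0.52), Spp1, which encodes osteopontin (-0.46, -0.60 and -0.50), and the cyclin gene Ccnd1 (-0.50, -0.63 and -0.55). In inputs 1, 5 and 1 fell, with medians of -0.46, -0.57 and -0.28, Mmp13 with each odour (-0.80, -1.04 and -0.73) and with Bacon also, among others, Hmox1 (-0.57) and Mmp9 (-0.70). Of all tested genes, 0.998%, 13.7% and 0.963% were called in these inputs, in either direction. The macrophage and fibroblast marker sums given above were lower with odour in the same libraries, and their part in these falls was not tested. In the pulldown-to-input ratio Ccnd1 alone of this list fell, by 0.53, 0.60 and 0.63.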

How the data were processed

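RNA was sequenced from pS6 pulldowns and from inputs of the same 21 pools of 4 epithelia. The libraries were made from amplified cDNA with a protocol that keeps no strand, sequenced as paired reads, and quantified by the authors with Salmon on GRCm38 within an nf-core pipeline. The authors divided each pulldown by its input and used DESeq2 1.26. The deposited values are estimated counts per gene, not normalized, of which 30.9% were not whole, and here they were rounded. Values that were not whole occurred for Jun and Jund in 100% of libraries, for Fosl2 in 40.5%, for Fos in 2.38% and for the other members in none, and did not follow the share of sequence held in common with other genes (54.5% for Fosl1).

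Counts were tested with edgeR 4.0.16 (quasi-likelihood, robust, TMM scaling, filterByExpr with a minimum count of 10) in 3 fits: pulldowns (19765 genes), inputs (20451) and both with a term for each pool (21168), where the pulldown-by-odour term gives the ratio. P-values were adjusted over all genes tested by Benjamini-Hochberg, with a threshold of 0.001, the level the study used. All 8 members passed the filter. Log2 CPM used a prior count of 2. Standard errors are the log2 fold change over the square root of its F. R 4.3.3, limma 3.58.1 and, as an alternative, DESeq2 1.42.0 were used, and the scripts were tested on simulated data.

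Samples were grouped by their labels. No 2 libraries of a group were alike within sampling noise (90 pairs were compared, and the least different had a chi-square of 3.33 for each degree of freedom). The members, gene lists and tests were chosen with earlier results of these data known. All members are described whatever their values, with up to 3 genes most like each by Pearson r, of the pathway lists the called genes with the smallest p (at most 3 for each comparison), and marker lists by their sums. Library totals had medians of 30313087 (pulldown) and 31457027 (input) reads. Promoter windows came from RefSeq (7 of 8 members matched).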

Additional observations from a re-analysis of the deposited data

Results flagged for a closer look

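Of 96 groups of 5 or 6 libraries or pools examined over the 8 members, 5 held a sample that lay far from the others by Dixon's test, and chance alone flags about 1 in 20 groups. In Bacon pulldowns pool 1 was low for Fosb, at 8.63 CPM against a median of 17.1 CPM in the other 4, and low for Jun, at 75.0 CPM against 85.7 CPM. The same library stood apart in its marker sums, and the part of that in its Fosb and Jun values was not tested. In HFD pulldowns pool 1 was high for Fosl2, at 42.2 CPM against 38.8 CPM. In NCD inputs pool 3 was high for Atf3, at 3.57 CPM against 2.05 CPM. In NCD pool 2 the log2 pulldown-to-input ratio of Fos was 0.762 against a median of 1.19 in the other pools.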

How the results depend on the processing

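Fos passed over no odour in 90 of 90 alternatives in pulldowns and 90 of 90 in inputs, and Fosb in 64 of 90 and 54 of 90. These counts pool the 3 odours, each with 21 fits without 1 pool and 9 other alternatives. The fits without 1 pool include those that left out a pool of an odour not compared. The alternative threshold of 0.05 was scored at 0.05 on the main fit. It could therefore lose no call, and it counts Fosb with HFD as passing. Of 878 alternatives of the 29 member results that any setting called, 796 kept direction and side of the threshold, 51 lost the call, 29 gained it and 2 reversed; results never called changed sign in 163 of 3663 alternatives. The 24 values with other prior counts stayed within the spread between pools. Jund in inputs reversed with each library's share of ribosomal RNA in the model, to 0.108 with Bacon and 0.0782 with NCD. In inputs this term cannot be told apart from odour, as the shares with and without odour did not overlap. That term left 1 member called in NCD pulldowns, NCD inputs and Bacon inputs (3, 2 and 3 in the report), 2 in Bacon pulldowns (3), 4 for pulldown over input without odour (6) and 0 for HFD over Bacon in inputs (1). DESeq2 called 1 for Bacon over NCD in each kind of library (0), 2 for HFD over no odour in each (1). Library sizes without TMM, added after seeing the data, called the same 1 and 2 in these 4 comparisons, and 1 for the Bacon ratio (0). Keeping genes with 1 count or more in all gave 1 for Bacon over NCD in each kind of library. Fits on only the groups compared gave 0 for HFD over Bacon in pulldowns (1), 2 for HFD over no odour in pulldowns (1), 1 for Bacon over NCD in inputs (0), 1 for NCD in inputs (2), 2 for NCD and for Bacon in pulldowns (3 in each, Jun being lost) and 4 for pulldown over input without odour (6). At a threshold of 0.05 the counts were 1 for the Bacon ratio, 1 for Bacon over NCD in each kind of library, 2 for HFD over Bacon and for HFD over no odour in pulldowns, 4 for Bacon in pulldowns and in inputs (3 in each), 3 for HFD (1) and for NCD (2) in inputs, and 7 for pulldown over input without odour (6). The share of all genes passing 0.05 is not given here, so the counts at that threshold have no background. Apart from the changes given here, causes were not tested.

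The pool numbers were shared between groups, but same-numbered pools did not deviate together (median r of 0.009 in pulldowns and 0.02 in inputs, lowest -0.345 and -0.153). Only 1 of 21 pulldowns and 6 of 21 inputs correlated best with their own number, so pools were not paired by number. A pulldown and its own input, paired by label, had a median r of 0.014. With the inputs of other pools of its group the median r was -0.004. The ratio of each pool rests on this pairing by label, which these values hardly show. With the replicate block the count was 3 of 8 for pulldown over input without odour (6), 0 for HFD over Bacon in inputs (1), 1 for NCD in inputs (2) and 2 for NCD in pulldowns (3, Jun at -0.31 with an edgeR adjusted p of 0.00162). For pulldown over input that model tests the value at pool number 1, not the mean over the pools. Leaving out 1 pool at a time gave 0 to 1 for Bacon over NCD in pulldowns and in inputs, 1 to 2 for HFD over no odour in pulldowns, 0 to 1 for HFD over Bacon in inputs and 1 to 3 for NCD in inputs. The fewest reads were those of Fosl1 and of Fosb inputs without odour, with medians of 23 and 36 reads in inputs without odour, and the effect of depth was not tested.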
